A study of Rattus norvegicus with 11 samples.

Results

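The miR-10, miR-99/100 and miR-125 families are 3 related groups of microRNAs, measured here in pancreatic islets. Members were chosen by name alone, as every rat miR-10a, miR-10b, miR-99a, miR-99b, miR-100, miR-125a or miR-125b entry, of either arm and without a star name, present on both array designs. This rule found 10 of 340 miRNA names shared by the designs. Of these, 8 were detected on at least 5 of 11 arrays and were tested among 152 miRNAs: miR-10a-5p, miR-10b, miR-99a, miR-99b, miR-100, miR-125a-5p, miR-125a-3p and miR-125b-5p. The other 2, miR-10a-3p and miR-125b-3p, were not detected on any array and have no level here.

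Islets came from daughters of Sprague Dawley rats. In the HFD group the fathers ate pellets with 43% as fat and in the Control group chow with 9%, and at 15 weeks of age they were mated with chow-fed females. Every daughter was weaned to chow at 3 weeks. Glucose tolerance was tested at ages 6 and 12 weeks, insulin tolerance at 11, and islets were taken at 13; the father's diet is the difference the labels name. From each sample 100 ng of total RNA was labelled and hybridised to an Agilent microRNA array, a glass slide on which short probes capture each labelled miRNA and the brightness of its spots is read. The first array design, all on 1 slide, held 4 Control (602, 613, 615, 639) and 4 HFD (603, 607, 644, 653) samples, and the second held 2 Control (635, 652) and 1 HFD (640). Fathers and litters of the daughters are not in the labels, so each test treats the samples as independent and p-values measure the spread between these samples.

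HFD 653 stood apart from the other arrays: 105 shared miRNAs were detected on it against 138 to 157 on the other 7 of its slide, and its negative controls had an SD of 11.6 against 2.03 to 2.41. No member had a saturated spot.

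The miR-10 genes lie inside Hox clusters and are expressed with them along the body axis. The miR-99/100, let-7, miR-125a and miR-125b genes form clusters that are conserved from flies to mammals; miR-125a and miR-125b are relatives of worm lin-4, and miR-99 and miR-100 are known repressors of the mTOR growth pathway. Several members, among them miR-10b, miR-100 and miR-125b, are known from mesenchymal and vascular cells as well as from epithelium, and whole islets contain both.

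The mature sequences show which members share a seed, the bases that pair with targets. RefSeq sequences on the GRCr8 build matched 8 of 10 members, all but miR-99a and miR-125b-3p. They are written 5′ to 3′ with bases 2 to 8, the seed, in capitals, for the matched members that were detected and for miR-351, a further miRNA on both designs with a member's seed.
miR-10a-5p: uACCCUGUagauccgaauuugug
miR-10b: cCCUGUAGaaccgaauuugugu
miR-99b: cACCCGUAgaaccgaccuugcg
miR-100: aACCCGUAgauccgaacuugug
miR-125a-5p: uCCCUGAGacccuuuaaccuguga
miR-125b-5p: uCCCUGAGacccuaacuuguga
miR-125a-3p: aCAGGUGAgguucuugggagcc
miR-351: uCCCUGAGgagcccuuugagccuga

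miR-99b and miR-100 share the seed ACCCGUA, and miR-125a-5p and miR-125b-5p share CCCUGAG. miR-351 has that same seed and was detected on 0 of 11 arrays. The RefSeq miR-10b starts at what is base 3 of miR-10a-5p, so that their bases 2 to 8 differ, while 20 of the 21 bases that align are identical and the exception is U12A (miR-10a base, its position from the 5′ end, miR-10b base). miR-99b and miR-100 were identical at 18 of 22 positions and differed by C1A, A11U, C16A and C21U. miR-125a-5p and miR-125b-5p share their first 13 and last 5 bases. How far a probe of one member also captures its close relative was not tested.

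On GRCr8 all the member genes are on the + strand. The mature miR-10a-5p is at chr10:81779730-81779752 in an interval between Hoxb5 and Hoxb4, and miR-10b at chr3:80035886-80035907 inside the Hoxd4 gene. miR-99b (chr1:67350070-67350091) and miR-125a-5p (chr1:67350689-67350712) lie with let-7e inside the gene Spaca6, and the 3 hairpins, 95 and 353 bases apart, span 696 bases. miR-100 is at chr8:50798307-50798328, with the hairpins of let-7a-2 and miR-125b-1 at 6828 and 51661 bases beyond it, all inside the transcripts Lnc215 and Mir100hgl. On chromosome 11 the miR-99a hairpin is 639 bases before that of let-7c-1 and 45115 bases before miR-125b-2, whose mature miR-125b-5p is at chr11:29732588-29732609, all within the long noncoding RNA LOC103693508. The array signal of miR-125b-5p does not separate its 2 gene copies.

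Among the members, miR-125a is the only hairpin with both arms detected. Its RefSeq precursor (chr1:67350675-67350759) is shown with the 5p arm and then the 3p arm in capitals.
Mir125a hairpin: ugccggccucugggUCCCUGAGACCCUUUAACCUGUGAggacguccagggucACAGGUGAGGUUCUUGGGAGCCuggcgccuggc

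No member passed the test of a difference between daughters of HFD and Control fathers. With array design as a block, limma (2-sided, Benjamini-Hochberg adjusted over all 152 miRNAs) called 0 of 152 miRNAs (0%), at an adjusted p under 0.05, and 0 of 8 members. At an unadjusted p under 0.05 there were 3 of 152 (1.97%), miR-150, miR-296* and miR-431, which are named after their values were seen and are not members, and the smallest unadjusted p of a member was 0.215, for miR-10b. Adjusted p was 0.987 for every member. The largest fitted differences were those of miR-125a-3p, miR-10b, miR-10a-5p and miR-100, each with an interval that includes 0.

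miR-10a-5p is the miR-10 of the Hoxb cluster. Its scaled signal, the array signal after scaling each array to a common level, was 116, 111, 115 and 82.3 in Control 602, 613, 615 and 639 and 181, 124, 88.2 and 178 in HFD 603, 607, 644 and 653. On the second design it was 107 and 96.4 in Control 635 and 652 and 95.3 in HFD 640. Of the HFD samples on the first design 3 lay above all Control samples and 1, HFD 644, lay among them, while on the second design HFD was the lowest. The fitted log2 difference, HFD minus Control, was 0.26 ± 0.21 (SE, 95% interval -0.20 to 0.72).

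miR-10b, its paralog in the Hoxd cluster, had a scaled signal of 42.9, 28.6, 31.8 and 21.8 in Control and 73.9, 49.9, 23.1 and 51.3 in HFD on the first design, in the same sample order. On the second design it was 63.1 and 39.6 in Control and 45.7 in HFD. Here too HFD 603, 607 and 653 were above all 4 Control samples and HFD 644 was low, and the lone HFD sample of the second design lay between the Control samples. It was not detected on HFD 653 and was detected on the other 10 arrays. Its log2 difference was 0.41 ± 0.31 (SE, 95% interval -0.28 to 1.1), a fold of 1.33 with an interval from 0.824 to 2.14.

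miR-99a, which shares a cluster with let-7c and miR-125b-2, had a scaled signal of 1282, 1108, 1335 and 1021 in Control and 1190, 1111, 1088 and 1206 in HFD on the first design. On the second it read 561 in both Control samples and 625 in HFD. All HFD samples of the first design lay within the Control range. The log2 difference was 0.01 ± 0.10 (SE, 95% interval -0.21 to 0.23).

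miR-99b, from the Spaca6 cluster, read 112, 144, 176 and 155 in Control and 124.8, 153, 149 and 150 in HFD on the first design, as scaled signal. On the second design it read 175 and 164 in Control and 189 in HFD. Again the first-design HFD samples fell inside the Control range, with Control 602 and HFD 603 the lowest of their groups. The log2 difference was 0.03 ± 0.13 (SE, 95% interval -0.25 to 0.31).

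miR-100, the seed partner of miR-99b, was dim on the first design. Its scaled signal was 17.1, 14.3 and 15.5 in Control 602, 613 and 615, under the floor of 10.3 in Control 639, and 21.5, 19.9, 10.71 and 18.3 in HFD. On the second design it was 68.2 and 57.3 in Control and 71.6 in HFD. The order of the first-design samples resembled that of the miR-10 pair, with HFD 603, 607 and 653 above every Control sample and HFD 644 near the floor. It was not detected on Control 639 and HFD 653, and was detected on the other 9 arrays. Its log2 difference was 0.26 ± 0.20 (SE, 95% interval -0.19 to 0.70).

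miR-125a-5p, which shares its seed with miR-125b-5p, read 382, 386, 474 and 415 in Control and 401, 410, 428 and 488 in HFD on the first design, as scaled signal. The second-design values were 470 and 374 in Control and 416 in HFD. Only HFD 653 lay above the Control samples of its slide. The log2 difference was 0.04 ± 0.10 (SE, 95% interval -0.19 to 0.27).

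miR-125a-3p, the opposite arm, varied more between samples. Its scaled signal was 151, 65.2, 56.0 and 49.6 in Control and 159, 72.9, 89.6 and 143 in HFD on the first design, and 134 and 51.5 in Control and 73.9 in HFD on the second. Control 602 and 635 were far above the other Control samples and as high as most HFD samples. Some of its probes were dim. Those with first-design medians of 8.17 and 9.26 each had most spots well above background on 1 of 8 arrays there. On the second design they did so on 0 of 3. The brighter probes, with medians of 29.7 and 31.8, did so on 5 and 7 of 8 and on 3 and 1 of 3. The log2 difference was 0.41 ± 0.38 (SE, 95% interval -0.43 to 1.25), the widest interval of the 8 members.

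On the first slide, position moved with miR-125a-3p. The arrays in columns 1 and 2 of the first slide, 3 HFD and 1 Control, read 6.49 to 7.31 on the log2 scale, and those in columns 3 and 4, 1 HFD and 3 Control, read 5.63 to 6.19. For no other member were these column pairs apart, against 9 of 152 miRNAs (5.92%). On the second slide the 2 Control arrays were in columns 3 and 4 and the HFD array was in column 2. The pattern was not seen there: HFD 640 read 6.21 on the log2 scale, between Control 635 (7.07, column 4) and Control 652 (5.69, column 3). With the column pair (1 and 2, or 3 and 4) as a second block the difference of miR-125a-3p was -0.15 (adjusted p = 0.900, limma), so that its sign depended on this term. With the same term miR-10b read 0.34, miR-10a-5p 0.20 and miR-100 0.24 on the log2 scale, and adjusted p ran from 0.736 to 0.900 over the 8 members. The part of slide position in the result was not tested further.

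miR-125b-5p, made from the clusters on chromosomes 8 and 11, read 521, 615, 629 and 535 in Control and 668, 594, 609 and 529 in HFD on the first design, as scaled signal. On the second it read 1233 and 1183 in Control and 1394 in HFD. Only HFD 603 exceeded all Control samples of the first slide. The log2 difference was 0.10 ± 0.10 (SE, 95% interval -0.12 to 0.31).

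**Figure D1:**
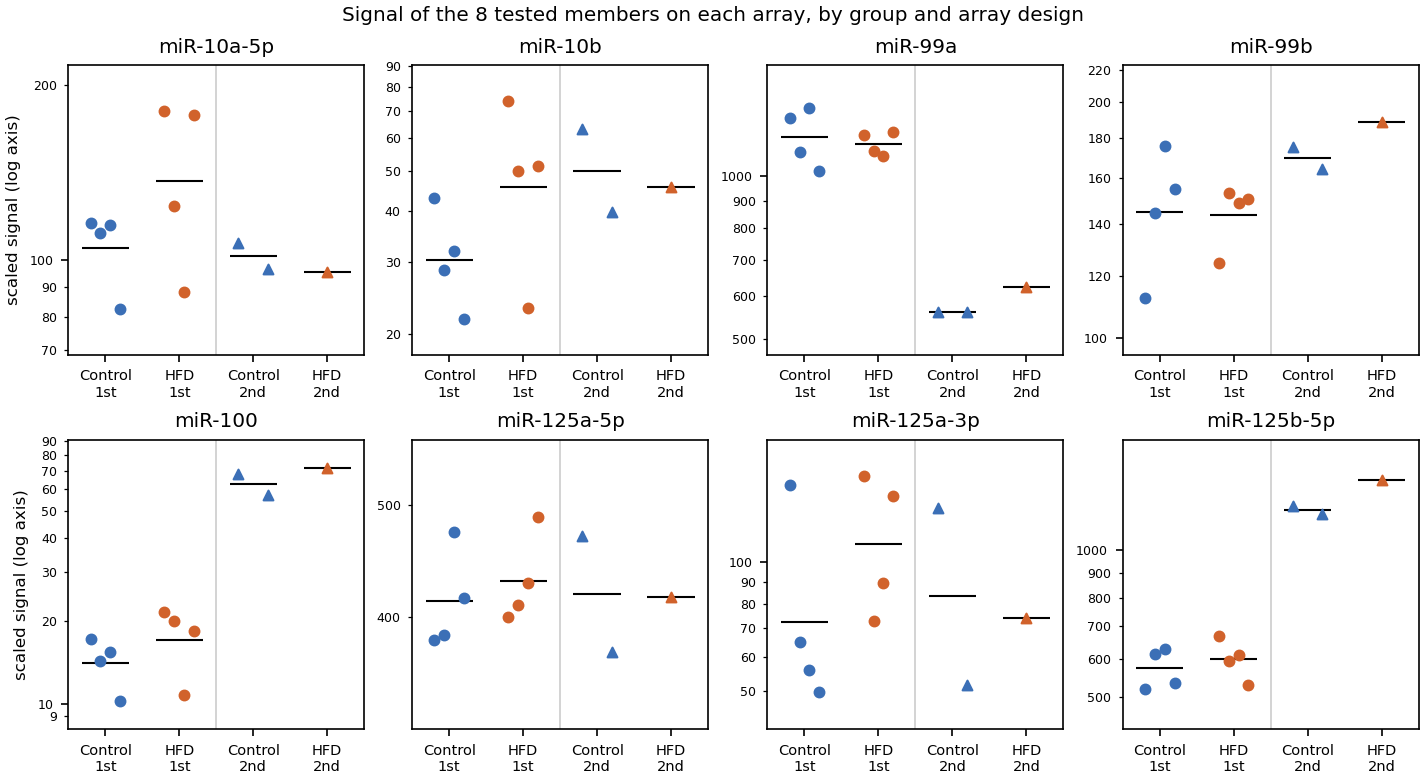
Scaled signal (log axis) of the 8 tested members on each of 11 arrays, by group (blue Control, orange HFD) and array design (circles first, triangles second), with geometric means as lines. The groups overlap on the first design for all 8 members, and miR-99a, miR-100 and miR-125b-5p sit at another level on the second design.

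Single samples moved the larger differences. Leaving out 1 array at a time, the log2 difference of miR-10b ran from 0.22 (without HFD 603) to 0.62 (without HFD 644), and that of miR-10a-5p from 0.15 to 0.40 without the same arrays. That of miR-10a-5p was also 0.16 without HFD 653 or Control 639, and that of miR-10b 0.27 without Control 639. For miR-100 it ran from 0.15 (without Control 639) to 0.41 (without HFD 644). For miR-125a-3p it ran from 0.26 (without Control 639 or HFD 603) to 0.65 (without Control 602). Without HFD 653, Control 602 and HFD 603 together, miR-10a-5p read -0.01 on the log2 scale and miR-10b 0.16, and no member was called (adjusted p from 0.949 to 0.992, limma).

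On the first design the 2 groups overlapped for 8 of 8 members, as for all but 2 of 152 miRNAs (1.32% did not overlap, miR-150 and miR-532-5p). In the main scaling the intervals exclude a 2-fold difference in either direction for 6 of 8 members, all but miR-10b and miR-125a-3p. For 4 of 8, miR-99a, miR-99b, miR-125a-5p and miR-125b-5p, they exclude 1.5-fold. These 4 had small spread: the SD within groups of the first design was 0.14 for miR-99a, 0.22 for miR-99b, 0.14 for miR-125a-5p and 0.14 for miR-125b-5p on the log2 scale, below the median of 0.33 over all tested miRNAs. miR-125a-3p and miR-10b, with 0.64 and 0.57, ranked 27 and 38 of 152 from the most variable, and miR-100 and miR-10a-5p had 0.39 each.

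The fitted difference was above 0 for 8 of 8 members, against 108 of 152 miRNAs (71.1%), and the members' median was 0.18 against 0.066 for all. This count depended on the scaling between arrays, which shifted all miRNAs together. Scaled to the 75th percentile over all shared miRNAs, the median of all tested miRNAs moved by -0.21, to -0.15, and 4 of 8 members (miR-10a-5p, miR-10b, miR-100 and miR-125a-3p) against 36 of 152 miRNAs (23.7%) were above 0. Under quantile normalisation 3 of 8 members (miR-10a-5p, miR-125a-3p and miR-125b-5p) were above 0, against 31.6% of all, and with no scaling 8 of 8, against 88.2%. Relative to the median of all miRNAs, 5 of 8 members were above it in the main setting, and the members' median exceeded it by 0.11, or by 0.046 to 0.11 under the other scalings.

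**Figure D2:**
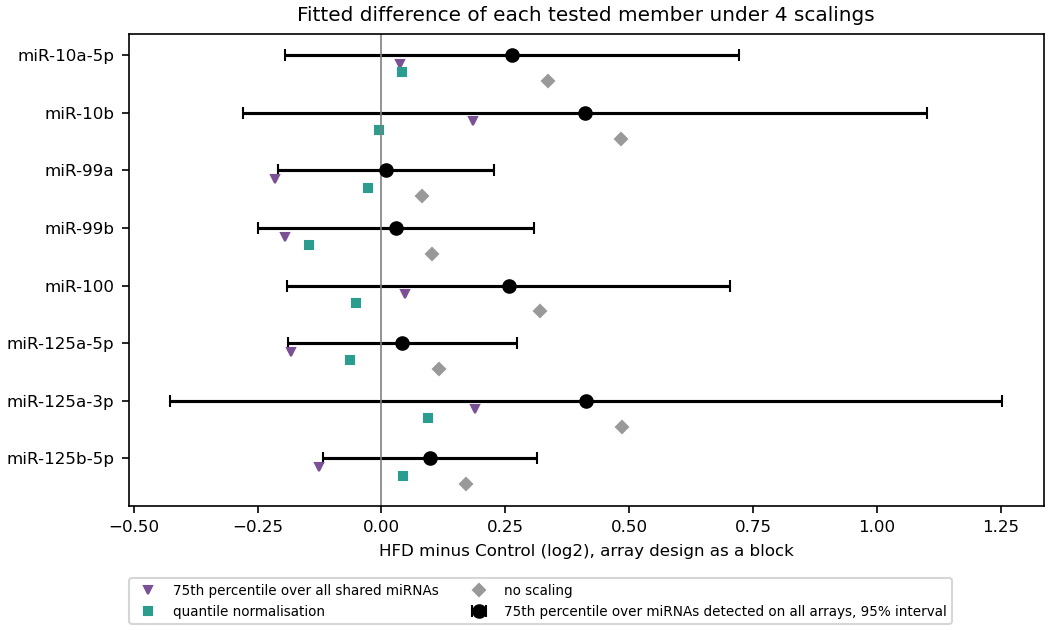
Fitted log2 difference, HFD minus Control, of the 8 members with array design as a block. Black points with 95% intervals are the main scaling and coloured marks are 3 other scalings; every interval includes 0, and 6 of 8 members lie on either side of 0 depending on scaling, all but miR-10a-5p and miR-125a-3p.

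Within the first design alone, limma called 0 of 152 miRNAs (0%; unadjusted p under 0.05 for 2, 1.32%, miR-150 and miR-210), with 6 of 8 members above 0 against 93 of 152 miRNAs (61.2%). The log2 differences there were 0.61 ± 0.41 (SE) for miR-125a-3p, 0.59 ± 0.37 for miR-10b, 0.38 ± 0.25 for miR-10a-5p and 0.28 ± 0.26 for miR-100. On the second design, whose single HFD array allows no test, these 4 read -0.17, -0.13, -0.09 and 0.20, and 4 of 8 members were above 0 against 119 of 152 miRNAs (78.3%). Only miR-100 and miR-125b-5p had the same sign on both designs, 2 of 8 members against 80 of 152 miRNAs. A test of whether the diet difference depended on array design called 0 of 152 (0%; 1 at an unadjusted p under 0.05, 0.658%, miR-532-5p), and the members' adjusted p in it was 0.996.

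The cluster neighbours did not pass the test either. The log2 difference was -0.04 ± 0.09 (SE) for let-7a, -0.08 ± 0.09 for let-7c and -0.17 ± 0.12 for let-7e, members of the let-7 family of differentiation-associated miRNAs, each with an adjusted p of 0.987 (limma). Each was detected on all 11 arrays.

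The array designs themselves differed for some members although all 10 had the same probes on both. Second minus first, limma called 91 of 152 miRNAs (59.9%), 60 higher (39.5%) and 31 lower (20.4%), and 3 of 8 members. miR-100 was higher on the second design by 2.13 ± 0.22 (SE) on the log2 scale (adjusted p = 2.4e-05), miR-125b-5p was higher by 1.13 ± 0.11 (adjusted p = 1.3e-05), and miR-99a was lower, at -0.999 ± 0.11 (adjusted p = 2.7e-05). miR-10a-5p, miR-10b, miR-99b, miR-125a-5p and miR-125a-3p, between -0.23 and 0.45, were not called. The miR-99a value turned to 0.063 with no scaling and the miR-100 value to -0.0039 with normexp background correction, so that neither call held there (adjusted p = 0.892 and 0.985, limma). Since miR-100 lay near the floor on the first design, the size of its difference is uncertain. It was 0.89 with the median in place of the sum over probes and 1.76 with the floor at the 5th percentile, still called in both. Design, slide, scan and scanner software version coincided and the animals differed, and these cannot be told apart.

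Probes of a single member moved unequally between the designs. For miR-125b-5p the dimmer probe read 12.3-fold higher on the second design and the brighter 1.59-fold. Both probes of miR-99a were lower there, with ratios of 0.673 and 0.422. The signal of miR-100 came from 1 of its 2 probes on the first design, where the other stayed between -4.60 and 1.07 in scaled signal, and the brighter probe had most spots well above background on 2 of 8 arrays of the first design and 3 of 3 of the second, so that no fold is given for it. For miR-125a-5p the dimmer probe read 2.77-fold higher and the brighter 0.817-fold, so that their sum hardly moved. Likewise miR-10b came from 1 of 2 probes on the first design, where the other read at most 6.37.

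The miR-10 paralogs varied together across samples. Over the 8 arrays of the first design miR-10a-5p and miR-10b had Pearson r = 0.92 (exact permutation p = 0.00027, 0.0019 adjusted over 7 pairs) and Spearman rho = 1 (exact p = 4.96e-05, the smallest these 40320 orders can give, 0.000347 adjusted). Both ranked the samples from Control 639, the lowest, through HFD 644 to HFD 603, the highest. Without HFD 603 and HFD 653, the samples farthest from the median of miR-10a-5p, r was 0.89, and under quantile normalisation it was 0.75 (exact p adjusted to 0.207). The 2 genes lie on different chromosomes, and 20 of the 21 aligned bases of their mature forms are identical. The part of capture by each other's probes in this relation was not tested.

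Whether members of a cluster varied together depended on the scaling. In the main scaling, under quantile normalisation and over all 11 arrays centred by design, 0 of 6 cluster pairs passed. With the 75th percentile over all shared miRNAs 3 of 6 passed, and with no scaling 5 of 6. The share of all miRNA pairs that pass was not computed, so these counts have no background. By r in the main scaling, let-7c ranked 6 of 150 miRNAs for miR-99a, and miR-125a-5p ranked 35 for miR-99b and 16 for let-7e. miR-125b-5p ranked 66 for miR-99a and 54 for miR-100, and let-7e ranked 92 for miR-99b. miR-99b with miR-125a-5p, from hairpins 541 bases apart, had r = 0.68 and rho = 0.71 (exact permutation p = 0.0594 and 0.0576, adjusted 0.208 and 0.202), and r = 0.55 without Control 602 and HFD 603. Its r was 0.97 with no scaling and 0.92 with the 75th percentile over all shared miRNAs, both past the threshold (exact adjusted p = 0.00017 and 0.0043), and -0.053 under quantile normalisation. miR-99a with let-7c had r = 0.60 (exact adjusted p = 0.257), and r = 0.90 without Control 615 and 639, the samples farthest from the median of miR-99a, and passed at r = 0.86 with no scaling and 0.89 with that percentile. The long-range pairs, miR-99a and miR-100 each with miR-125b-5p, had r = 0.064 and 0.21 (exact adjusted p = 0.874 and 0.836; the first passed at r = 0.83 with no scaling), and the pairs of let-7e with miR-99b and with miR-125a-5p had r = 0.075 and 0.29 (exact adjusted p = 0.874 and 0.825). The arms of the miR-125a hairpin shown above, a pair added after the data were seen, had r = -0.084 (exact permutation p = 0.827).

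Before any scaling, 4 of 8 members followed the overall level of an array on the first design. The 75th percentile of total signal over the 85 miRNAs detected on all arrays ran from 416 in HFD 603 to 675 in HFD 644 on the first design. Unscaled signal followed it with r = 0.88 for miR-99a, 0.87 for miR-99b, 0.88 for miR-125a-5p and 0.90 for miR-125b-5p (exact permutation p, each 0.0122 adjusted over 8 relations), and without HFD 603 and 644 r was 0.74 to 0.93. The relation was not past the threshold for miR-10a-5p (r = -0.22), miR-10b (-0.34), miR-100 (0.076) and miR-125a-3p (-0.31), with exact p adjusted to 0.578 to 0.867. These last 4 members were those with the wider intervals in the diet comparison. That is not a separate result, because the scaled values were divided by the 75th percentile over the same 85 miRNAs. Among these 4, miR-100 (5.55 to 12.6 unscaled on the first design) and miR-10b (12.4 to 31.7) were dim. Of the members, 6 are themselves among the 85, so that the level is partly made from them. The share of all tested miRNAs that follow the level was not computed, so following it cannot be called a trait of these members.

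**Figure D3:**
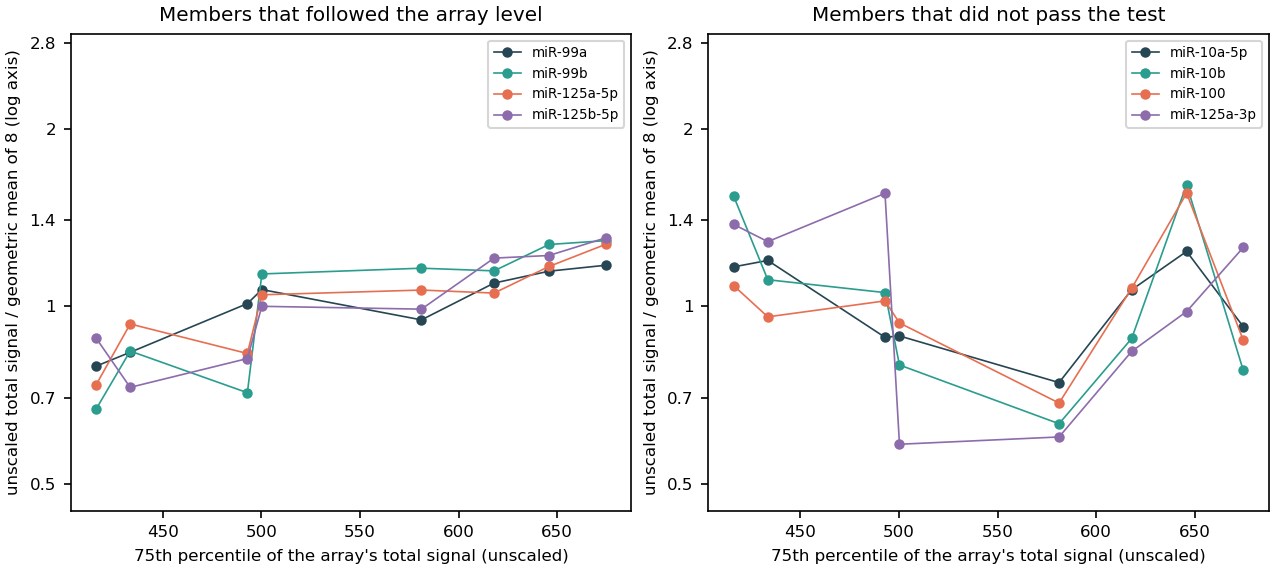
Unscaled total signal of each member relative to its geometric mean (log axis) against the 75th percentile of the array's total signal, for the 8 arrays of the first design. miR-99a, miR-99b, miR-125a-5p and miR-125b-5p rise with the array level (r from 0.87 to 0.90) and the other 4 members do not pass the test.

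Islet preparations carry stroma, vessels, blood cells and exocrine tissue, and fewer cells of a type and less RNA per cell cannot be told apart in RNA of whole islets. Endocrine markers were present throughout: miR-375, miR-7a and miR-7b were detected on all 11 arrays, and their summed scaled signal was 10396 to 14743 in Control and 10925 to 13436 in HFD on the first design. The 5 fibroblast and smooth muscle markers summed to 263 to 460 in Control and 272 to 595 in HFD there, of which miR-143 gave 230 to 383 and 240 to 522, with miR-145 and miR-199a-5p detected on 1 array each. The 4 leukocyte markers summed to 33.1 to 40.4 in Control and 33.6 to 356 in HFD, with HFD 603 highest, HFD 653 next at 124.9 and miR-142-5p detected on none. Of these, miR-150, named above in the diet comparison, gave 209, 71.2 and 25.1 in HFD 603, 653 and 607, against 9.48 to 12.5 in Control. miR-142-3p read 102 in HFD 603 and 3.09 to 8.54 on the other first-design arrays. miR-223 read 26.2 and 45.2 in HFD 603 and 653, but in HFD 607 (19.3) and 644 (15.8) it was below Control (20.4 to 23.2). The exocrine (acinar) pair miR-216a and miR-217 summed to 21.0 to 623 in Control and 106 to 666 in HFD. miR-126 of endothelium read 388 to 501 in Control and 350 to 613 in HFD. Of the red blood cell pair, miR-144 was detected on no array and miR-451 on 3, so that list was not set against members.

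Across the first design, miR-100 followed the fibroblast and smooth muscle markers. The 8 members were set against 5 lists, 40 relations in all, and by an adjusted exact permutation p under 0.05, 4 passed by Pearson r and 6 by Spearman rho. miR-100 with the summed fibroblast and smooth muscle markers had r = 0.96 and rho = 0.93 (exact p = 0.00099 and 0.0022, adjusted 0.013 and 0.022), r = 0.81 without Control 639 and HFD 644, the samples low in both, and it stayed past the threshold under 3 other scalings. miR-10b with the same list had r = 0.87 (exact adjusted p = 0.035), which fell short with no scaling (r = 0.73) and with the 75th percentile over all shared miRNAs (r = 0.81). miR-10a-5p with it had r = 0.83 (exact adjusted p = 0.0955) and rho = 0.90 (exact adjusted p = 0.030).

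miR-10a-5p and miR-10b with the leukocyte markers had r = 0.85 and 0.82 (exact adjusted p = 0.0025 and 0.0020) and rho = 0.98 each (exact adjusted p = 0.0079). Without HFD 603 and HFD 653, outside of which the list summed to 33.1 to 47.5, r was 0.72 and 0.91. By r neither passed under any of the 3 other scalings. miR-100 with this list had r = 0.66 (exact adjusted p = 0.132) and rho = 0.95 (exact adjusted p = 0.015). The samples in which the miR-10 pair and miR-100 were high, HFD 603, 607 and 653, also had the 3 highest sums of both lists on the first design. For the fibroblast and smooth muscle list this was narrow, with 464 in HFD 653 against 460 in Control 615. The HFD 653 sum included 51.2 of miR-199a-5p, which read at most 7.51 on the other arrays of that slide. By miR-143 alone HFD 653 (372) was below Control 613 (376) and 615 (383). The part of cell composition in the diet values of miR-10a-5p, miR-10b and miR-100 was not tested. None of the 8 relations with endocrine, 8 with endothelial and 8 with acinar markers passed. Yet miR-100 also had r = 0.85 with endothelial miR-126 and 0.78 with the acinar pair (exact adjusted p = 0.074 and 0.0955). Its relation to the fibroblast and smooth muscle list is thus not shown to be particular to that list. The share of all tested miRNAs that pass against these lists was not computed.

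**Figure D4:**
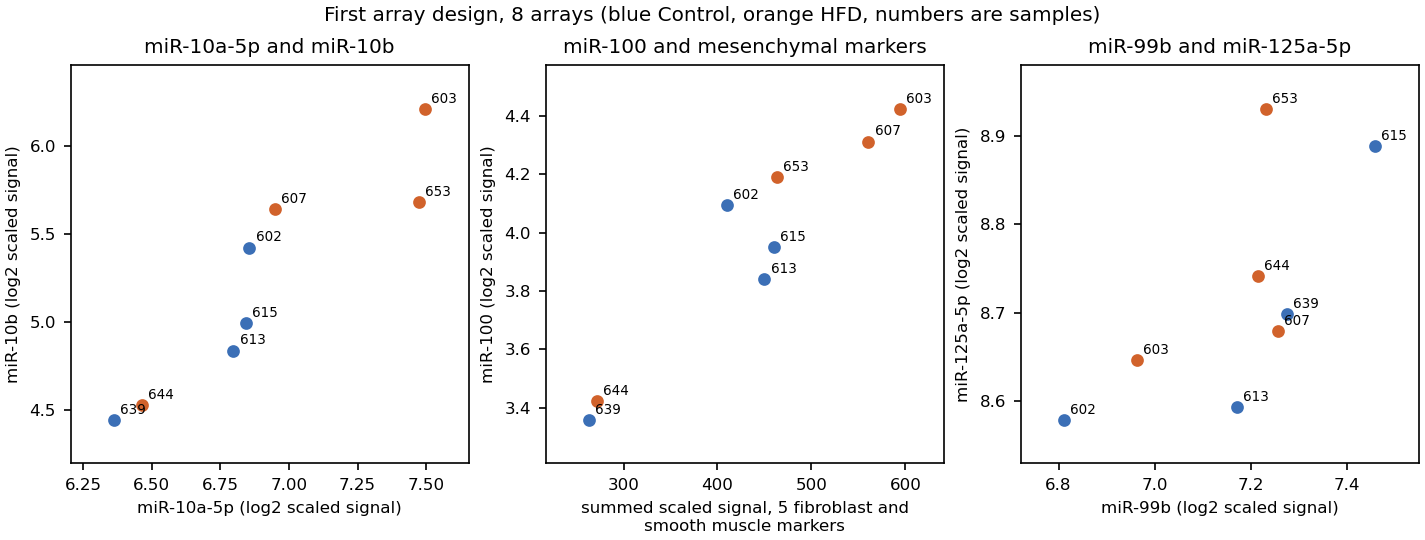
Each point is 1 of the 8 first-design arrays (blue Control, orange HFD). Left and right, log2 scaled signal of miR-10b against miR-10a-5p (r = 0.92) and of miR-125a-5p against miR-99b (r = 0.68); middle, log2 scaled signal of miR-100 against the summed scaled signal of 5 fibroblast and smooth muscle markers (r = 0.96). Control 639 and HFD 644 are lowest in the left and middle panels.

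Across all 11 arrays, with each design centred on its own mean, the tested miRNAs most like each member were found by Pearson r among 151 others, as a description over arrays that share their scaling. miR-10a-5p was nearest miR-181a (0.96), miR-10b (0.91) and miR-92a (0.87). miR-10b was nearest miR-100 (0.93), miR-10a-5p (0.91) and miR-672 (0.90), and miR-100 was nearest miR-10b (0.93), miR-143 (0.89) and miR-181a (0.88). miR-10b was thus among the 3 nearest of both miR-10a-5p and miR-100.

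The remaining members each had neighbours outside the families. miR-99a was nearest miR-21 (0.89), miR-200b (0.78) and miR-25 (0.74), and miR-99b nearest miR-455 (0.95), miR-107 (0.88) and miR-325-3p (0.88). miR-125a-5p was nearest miR-331 (0.82), miR-30b-3p (0.76) and miR-204 (0.76), and miR-125b-5p nearest miR-26a (0.82), miR-27a (0.77) and miR-30a (0.71). miR-125a-3p was nearest miR-672 (0.89), miR-347 (0.81) and miR-139-3p (0.79). In the main scaling, the only one in which neighbours were ranked, no cluster or hairpin partner was among the 3 nearest of any member. The medians over all tested miRNAs ran from -0.20 to 0.29.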

How the data were processed

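Total RNA of islets (100 ng) was labelled with Cy3, per the labels' protocols. The deposited spot intensity was background-subtracted by Agilent Feature Extraction 10.5.1.1 (first design) or 10.7.3.1 (second), per the file headers, and was not normalised between arrays. For detected miRNAs, the authors' deposited log2 tables matched log2 of total signal, plus 50 on the first design. The median absolute difference of an array was at most 3.6e-06. These tables were used as an alternative. The submitters' processing notes also list RMA and Partek, without versions. Unflagged spots were averaged per probe and probes summed per miRNA. Arrays were scaled at the 75th percentile over 85 miRNAs detected on all 11 arrays, floored at the 1st percentile of detected values (10.3) and log2-transformed. limma 3.58.1 in R 4.3.3 was fitted to 152 miRNAs, with array design as a block, and tested on simulated data. Correlations used exact permutation in numpy 2.4.6, with ranks from scipy 1.17.1. Normexp (offset 50) used median signals. The number of arrays limits the precision. The slide column pair as a block, the array design contrast and the marker and brightness relations were chosen after seeing the data. Named miRNAs were the members, let-7a, let-7c and let-7e of their clusters, miRNAs sharing a detected member's seed, each member's 3 nearest by correlation, and cell type markers. Members and lists were chosen with earlier results of these data known.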

Additional observations from a re-analysis of the deposited data

Results flagged for a closer look

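In groups of 4 samples on the first design, a gap test (Dixon, 16 groups of 8 members) marked 2 samples, where chance marks about 0.8. miR-10a-5p was low in Control 639, with a gap of 0.881 of the group's range to the next Control sample. miR-99b was low in HFD 603, with a gap of 0.860 of the range to the next HFD sample.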

How the results depend on the processing

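No paired analysis was possible because the groups share no replicate numbers. The second design has 1 HFD array, which gives no spread. miR-100, miR-10b and the dimmer probes of miR-125a-3p lie near background, which limits what their differences can show. In the diet comparison no member was called under any alternative run. The causes of the changes were not tested.

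No scaling gave 1 called miRNA, miR-150 (log2 difference 1.79, HFD minus Control, adjusted p = 0.00062, limma). With scaling at the 75th percentile of the whole shared list the median member difference was -0.044, and miR-99a read -0.22, miR-99b -0.20, miR-125a-5p -0.18 and miR-125b-5p -0.13. With median scaling these read -0.14, -0.12, -0.11 and -0.055. Quantile normalisation gave -0.0049 for miR-10b, -0.028 for miR-99a, -0.15 for miR-99b, -0.051 for miR-100 and -0.063 for miR-125a-5p. Without the design block miR-99b read -0.0095, miR-100 -0.027 and miR-125b-5p -0.053. With slide row as a block miR-99a read -0.00088, and with the slide column pair it read -0.074 and miR-125a-3p -0.15. Without HFD 653, Control 602 and HFD 603, miR-10a-5p read -0.0082 and miR-125a-5p -0.014. Leaving out 1 array at a time, miR-99a ranged from -0.040 (without HFD 640) to 0.058 and was also below 0 without Control 613, 635, 639 or 652 or HFD 653, miR-99b ranged from -0.054 (without Control 602) to 0.10 and was also below 0 without HFD 640, and miR-125a-5p ranged from -0.0034 (without HFD 653) to 0.088. The other 5 members stayed above 0, miR-125b-5p between 0.062 and 0.14.

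Between the designs, 57 of 85 miRNAs were called when only those detected on all arrays were tested, against 91 of 152 (59.9%) in the main setting. With no scaling miR-99a read 0.063, and with normexp miR-100 read -0.0039, second minus first.

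Correlations of cluster mates depended on the scaling. With no scaling r was 0.86 for miR-99a with let-7c, 0.83 for miR-99a with miR-125b-5p, 0.73 for miR-99b with let-7e, 0.97 for miR-99b with miR-125a-5p and 0.81 for let-7e with miR-125a-5p, each past the threshold (exact permutation, adjusted p from 0.00017 to 0.039). With the 75th percentile of the whole list r was 0.89 for miR-99a with let-7c, 0.92 for miR-99b with miR-125a-5p and 0.82 for let-7e with miR-125a-5p, also past it. Quantile normalisation gave -0.59 for miR-99a with miR-125b-5p, -0.053 for miR-99b with miR-125a-5p and 0.75 for miR-10a-5p with miR-10b, and all 11 arrays centred within design gave -0.017 for miR-99b with let-7e, none past it.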
